A study of Mus musculus with 6 samples.

Results

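The genes described here are the 5 isocitrate dehydrogenase genes Idh1, Idh2, Idh3a, Idh3b and Idh3g, together with Akr1cl and Pikfyve, which lie beside Idh1 on mouse chromosome 1. They are 7 of the 55571 gene entries of a count table, matched by symbol, and all 7 were among the 13594 genes with enough counts to be tested. Idh1 and Akr1cl were selected on their log2 fold change in the comparison described below, where 25 and 21 tested genes had a lower one, and the others were added as relatives or neighbours of Idh1. The values that compare the groups for these 7 genes are therefore a description and carry no test. The cells were E0771, a mouse mammary carcinoma line, sequenced as bulk RNA in 3 libraries of cells with a vector control and 3 libraries of cells with introduced wild-type Malt1 (Malt1-WT). The labels name no stimulus, no promoter that drives Malt1 and no separate cultures, and do not say whether the cells were a pool or 1 clone.

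Isocitrate dehydrogenases oxidise isocitrate to 2-oxoglutarate. IDH1 works in the cytosol and in peroxisomes and IDH2 in mitochondria, and both reduce NADP to NADPH, which feeds fatty acid and sterol synthesis and keeps glutathione reduced. IDH3 is the NAD-dependent mitochondrial enzyme of the TCA cycle, built from a catalytic alpha subunit (Idh3a) and the regulatory beta and gamma subunits (Idh3b, Idh3g). Mutant forms of IDH1 and IDH2 in human tumours make 2-hydroxyglutarate, but gene counts carry no information on mutations. Akr1cl encodes a member of the aldo-keto reductase superfamily. Pikfyve encodes the lipid kinase that makes phosphatidylinositol 3,5-bisphosphate on endosomes and lysosomes.

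Idh1 (chr1:65158616-65186500, minus strand) and Pikfyve (chr1:65186683-65278695, plus strand) stand head to head in GRCm38, with annotated starts 183 bp apart in GENCODE M21 and 206 bp apart in RefSeq. Akr1cl (chr1:65012689-65032759, minus strand) starts 154 kb from the Idh1 start, on the far side of Idh1 from Pikfyve. RefSeq gives Idh1 a second, inner start 7337 bp downstream of the outer one. Upstream sequences are shown because Idh1 and Akr1cl had nearly the same fold change while Pikfyve, which shares the outer interval with Idh1, did not. All 3 are RefSeq sequences of GRCm38.p6 on the minus strand, 5′ to 3′, and end 1 base before the Idh1 or Akr1cl start. The first is the 205-base interval between the outer Idh1 start and the Pikfyve start (chr1:65186480-65186684), the second lies before the inner Idh1 start (chr1:65179143-65179392) and the third before the Akr1cl start (chr1:65032760-65033009). Capitals mark CCAAT boxes (CCAAT) and GC boxes (GGGCGG) on either strand, and the 2 motifs do not overlap.
Idh1 to Pikfyve interval: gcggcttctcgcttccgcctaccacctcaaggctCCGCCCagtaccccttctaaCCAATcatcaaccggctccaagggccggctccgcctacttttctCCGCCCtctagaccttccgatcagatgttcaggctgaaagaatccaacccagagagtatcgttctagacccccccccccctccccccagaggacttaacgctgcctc
Idh1 inner start: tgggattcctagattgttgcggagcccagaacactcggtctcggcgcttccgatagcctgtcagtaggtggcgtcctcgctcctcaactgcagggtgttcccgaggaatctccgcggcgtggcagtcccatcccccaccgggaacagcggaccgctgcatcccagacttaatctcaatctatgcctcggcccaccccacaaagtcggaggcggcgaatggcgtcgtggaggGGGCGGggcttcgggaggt
Akr1cl start: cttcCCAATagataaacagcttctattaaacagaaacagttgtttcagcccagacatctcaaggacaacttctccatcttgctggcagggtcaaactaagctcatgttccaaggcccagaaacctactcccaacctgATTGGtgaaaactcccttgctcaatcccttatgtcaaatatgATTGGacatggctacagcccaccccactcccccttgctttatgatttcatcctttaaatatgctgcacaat

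The Idh1 to Pikfyve interval held 1 CCAAT box and 2 GC boxes, the inner Idh1 window 1 GC box and no CCAAT box, and the Akr1cl window 3 CCAAT boxes and no GC box. Both Idh1 sequences were rich in G and C (60% and 63.6%), and the Akr1cl sequence was not (44%), against a median of 52.4% over 32851 RefSeq promoter windows of 250 bases. A CCAAT box occurs in 33.8% and a GC box in 32.7% of those windows. In the last 205 bases of the windows, the length of the Idh1 to Pikfyve interval, the shares were 29.8% and 31.2%. The motif shares below are for 250 bases, and each was lower at 205. Both strands were also searched for motifs of regulated factors, and most had no match in any of the 3 sequences. This held for the E-box CACGTG (in 6.02% of the windows), the cAMP response element TGACGTCA (1.55%) and the AP-1 motif TGANTCA (6.75%). It also held for 1 narrow form of the NF-kB motif (1.41%). Looser forms of the NF-kB motif were not searched, so whether they occur in the 3 sequences was not tested. No match was found either for the sterol response element TCACNCCAC (1.05%) or the TATA box letters TATAAA (12.4%). TGANNNNGC, an antioxidant response element motif, had 1 match before the Akr1cl start and not in the Idh1 sequences, and is found in 35.2% of the windows. A match is no evidence of binding, and counts per gene cannot say which Idh1 start was used.

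Total counts ranged from 17601656 to 20543778 per library. Levels are given as CPM, the count scaled to the library size after normalisation by the trimmed mean of M values (TMM). Malt1, the introduced gene, had mean levels of 30.0 ± 1.31 CPM with the vector and 305 ± 6.48 CPM with Malt1-WT (SD over 3 libraries each). At an adjusted p under 0.05 in edgeR's quasi-likelihood test, 61.2% of all tested genes were called (4210 higher, and 4110 or 30.2% lower, in Malt1-WT), and the median log2 fold change was -0.0029. With scaling by library size only, 3528 were higher and 5006 lower. The p-values measure only the spread between these libraries, which may be technical. Among 7 epithelial markers only Krt8 (68.5 ± 2.30 and 59.6 ± 1.83 CPM in vector control and Malt1-WT, n = 3 each) and Epcam (6.30 ± 0.318 and 6.22 ± 1.00 CPM) exceeded 1 CPM, and Krt5 was at 0. The summed level of 8 leukocyte markers was 7.70 to 9.66 CPM over the vector libraries and 15.8 to 18.5 CPM over the Malt1-WT libraries, with Tyrobp at 0. These markers did not move together: Cd68 (4.48 ± 0.548 to 14.4 ± 1.21 CPM) and Adgre1 (0.053 ± 0.055 to 1.47 ± 0.256 CPM) rose, Lyz2 fell (3.77 ± 0.858 to 0.740 ± 0.399 CPM), and the other 5 were below 1 CPM in both groups. The summed level of 8 fibroblast and endothelial markers was 347 to 368 CPM and 367 to 393 CPM. Within that sum Pdgfrb (150 ± 6.02 to 224 ± 8.58 CPM) and Pecam1 (4.77 ± 0.777 to 9.68 ± 0.231 CPM) rose, while Pdgfra (161 ± 4.87 to 116 ± 6.23 CPM) and Col1a1 (20.1 ± 1.19 to 10.9 ± 1.57 CPM) fell. The part of these markers in the results was not tested.

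Idh1 was the member with the largest loss of counts. Vector libraries 1 to 3 gave it 1969, 2435 and 2336 counts, and Malt1-WT libraries 1 to 3 gave 282, 341 and 294. On the TMM-scaled CPM scale the vector libraries held 109, 119 and 116 and the Malt1-WT libraries 15.8, 17.0 and 17.2. The lowest vector library was thus 6.32 times the highest Malt1-WT library, and the libraries within a group differed little. The vector mean was 115 ± 5.56 CPM and the Malt1-WT mean 16.6 ± 0.774 CPM (SD, n = 3 each). This is a log2 fold change of -2.78 (SE 0.057), or 14.5% of the vector level. Among all tested genes 25 had a lower fold change than Idh1, and 0 of these were among the 6029 whose mean log2 CPM reached 5. Idh1 itself had a mean log2 CPM of 5.45. Since Idh1 was chosen for its low fold change, its place among the genes is a description. In bulk RNA, fewer cells with the transcript and less transcript per cell cannot be told apart.

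Akr1cl, the aldo-keto reductase gene, had nearly the same fold change at a lower level. Vector libraries gave it 269, 361 and 304 counts and Malt1-WT libraries 39, 41 and 39. In CPM the vector libraries were at 14.8, 17.7 and 15.1 and the Malt1-WT libraries at 2.18, 2.04 and 2.28. Every vector library was at least 6.51 times every Malt1-WT library. The log2 fold change was -2.88 (SE 0.142), or 13.6% of the vector level. The SE was larger than that of Idh1, and the 2 fold changes differed by less than 1 SE of Akr1cl. The ratio of Idh1 to Akr1cl counts was 7.25 ± 0.473 (range 6.75 to 7.68) in the vector control and 7.70 ± 0.560 (range 7.23 to 8.32) in Malt1-WT (SD, n = 3 each), so the ranges overlapped.

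Pikfyve, whose start faces that of Idh1, went slightly the other way. The vector libraries held 40.4, 41.0 and 39.4 CPM and the Malt1-WT libraries 43.7, 50.4 and 48.9 CPM. The highest vector library and the lowest Malt1-WT library lay close together, a factor of 1.07 apart, and the groups did not overlap. The log2 fold change was 0.25 (SE 0.059). The ratio of Idh1 to Pikfyve counts went from 2.85 ± 0.142 in the vector control to 0.350 ± 0.012 in Malt1-WT (SD, n = 3 each), with no overlap between the groups.

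**Figure D1:**
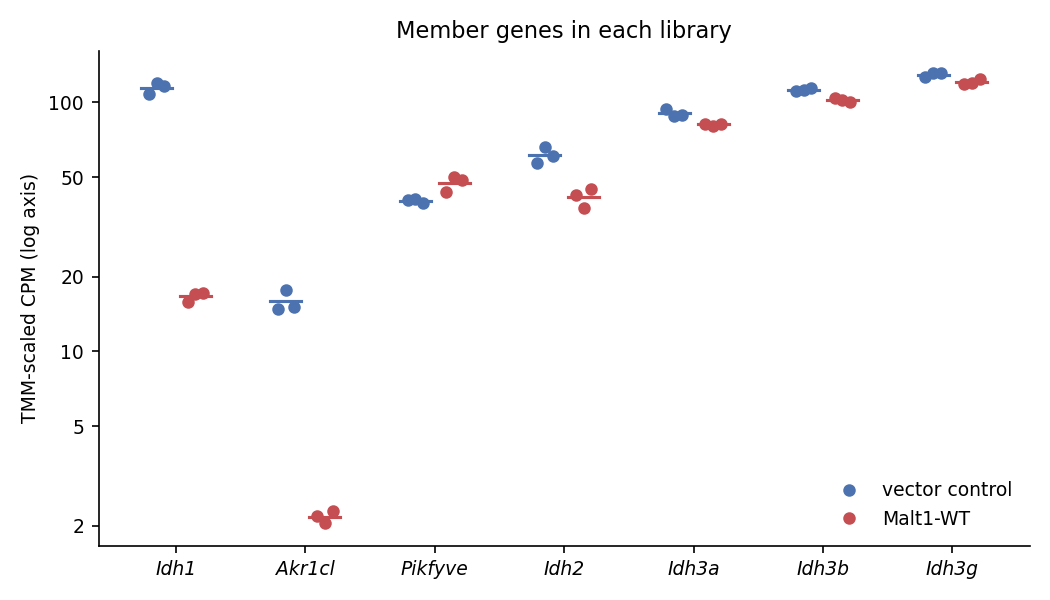
TMM-scaled CPM (log axis) of the 7 genes in each of the 3 vector control and 3 Malt1-WT libraries; points are libraries and bars the group means. Idh1 went from 115 to 16.6 CPM and Akr1cl from 15.9 to 2.17 CPM, while the Idh3 genes stayed within 10% of the vector level and Pikfyve was slightly higher.

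Idh2, the mitochondrial NADP-dependent enzyme, was lower by a smaller amount. Vector libraries were at 56.9, 66.1 and 60.9 CPM, Malt1-WT libraries at 42.6, 37.7 and 45.0 CPM. The groups did not overlap, although Idh2 varied more within groups than the Idh3 genes, with a coefficient of variation of 7.50% and 8.83% in the 2 groups. The log2 fold change was -0.56 (SE 0.060), or 67.9% of the vector level.

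The 3 subunits of IDH3 were lower by similar, small amounts. Idh3a, the catalytic subunit gene, had vector values of 94.3, 88.3 and 89.3 CPM against 81.8, 80.8 and 82.2 CPM with Malt1-WT. Idh3b was at 111, 112 and 114 CPM against 104, 102 and 101 CPM. Idh3g was at 126, 131 and 131 CPM against 118, 120 and 124 CPM. The groups did not overlap for any of the 3 genes, but the nearest libraries of Idh3g were only 1.02-fold apart. The log2 fold changes were -0.15 (SE 0.043) for Idh3a, -0.14 (SE 0.039) for Idh3b and -0.10 (SE 0.038) for Idh3g. With scaling by library size only they were -0.23, -0.21 and -0.18, a shift larger than the spread between replicates for all 3.

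In all, 6 of the 7 genes had every Malt1-WT library below every vector library and 1 had every one above. Over all tested genes these shares were 32.0% and 32.4%, and 64.4% in either direction, and since the comparison chose the members nothing is read from the count. In the authors' deposited table the log2 fold changes are -2.80 for Idh1, -2.87 for Akr1cl, -0.58 for Idh2, -0.16, -0.15 and -0.11 for Idh3a, Idh3b and Idh3g, and 0.23 for Pikfyve. The largest difference from the edgeR value, 0.0182, was that of Idh2.

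Levels of different genes were compared per length, as CPM per kb of exon. In the vector control the order from high to low was Idh3g (47.9 ± 0.949), Idh1 (41.4 ± 2.01), Idh3b (32.9 ± 0.475), Idh2 (23.7 ± 1.78) and Idh3a (17.9 ± 0.633; SD, n = 3 each). In Malt1-WT it was Idh3g (44.7 ± 1.13), Idh3b (30.0 ± 0.538), Idh2 (16.1 ± 1.42), Idh3a (16.1 ± 0.148) and Idh1 (6.01 ± 0.279). By this length Idh1 went from second to last, and Idh2 and Idh3a did not differ beyond their spread in Malt1-WT. The order depends on the gene length used. With the longest transcript in place of all exons, the vector levels were 62.2 for Idh3g, 55.0 for Idh3b, 49.8 for Idh1, 35.1 for Idh3a and 34.2 for Idh2, so that Idh1 stood below Idh3b. The Malt1-WT levels by that length were highest for Idh3g (58.1) and Idh3b, followed by 31.6 ± 0.291 for Idh3a, 23.3 ± 2.06 for Idh2 and 7.23 for Idh1. Idh1 was again last, but Idh3a and Idh2 then differed by more than their spread. Akr1cl (3.77 ± 0.377 and 0.515 ± 0.028 per kb) and Pikfyve (2.10 ± 0.041 and 2.48 ± 0.184 per kb) were below all 5 in both groups.

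The balance between the transcripts of the NADP-dependent enzymes was turned round. Per kb, Idh1 made up 62.8% to 64.1% of the sum of Idh1 and Idh2 in the vector libraries and 25.7% to 29.6% in the Malt1-WT libraries. The means were 63.6% ± 0.709 and 27.2% ± 2.12 (SD, n = 3 each), and 59.3% and 23.7% with the longest transcript. The sum of Idh1 and Idh2 went from 65.1 ± 3.75 to 22.1 ± 1.43 per kb. The 3 Idh3 genes together made up 60.3% ± 1.27 of the 5-gene sum in the vector control and 80.4% ± 0.894 in Malt1-WT. Within IDH3 the subunit ratios moved little, with Idh3a to Idh3b at 0.543 ± 0.025 and 0.537 ± 0.012 and Idh3b to Idh3g at 0.687 ± 0.0086 and 0.670 ± 0.028 in the 2 groups, each with overlapping ranges.

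**Figure D2:**
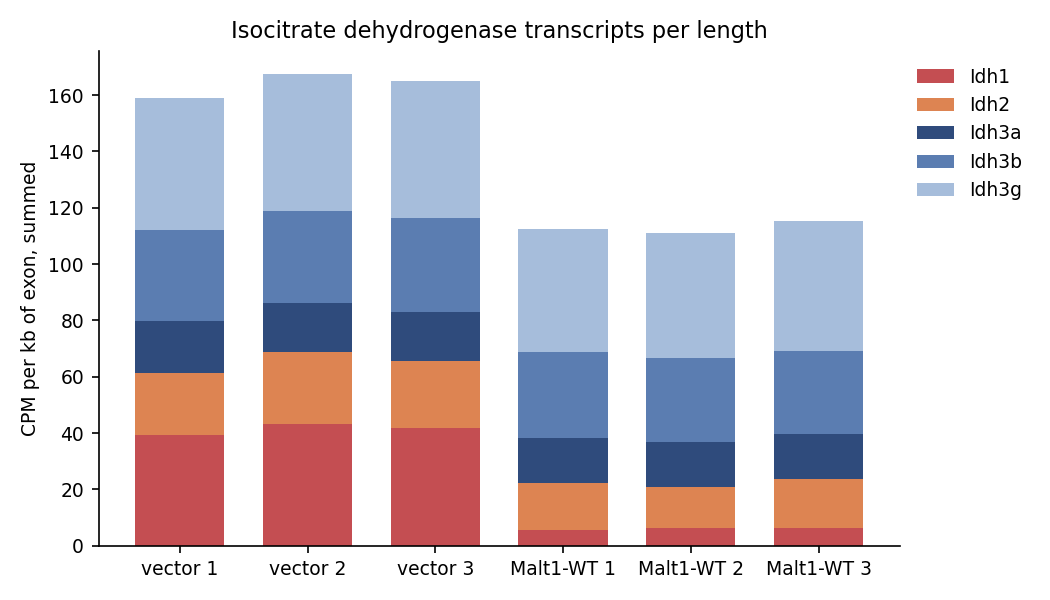
CPM per kb of exon of the 5 isocitrate dehydrogenase genes, stacked for each library. Idh1 is 39.2 to 43.1 in the vector libraries and 5.68 to 6.20 in the Malt1-WT libraries, while the 3 Idh3 blocks have nearly the same height throughout.

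Shared sequence was examined because it can mix counts between genes. In the GENCODE M21 transcripts, 0 of the 31-base words of Idh1, Idh2, Idh3a and Idh3g and 0.432% of those of Idh3b occur in transcripts of another gene. The share was 3.12% for Pikfyve and 13.0% for Akr1cl, and 0 are shared among the 7 genes. For Akr1cl the main partner is Gm8550 (chr1:65028080-65028732, plus strand), a processed pseudogene inside Akr1cl on the opposite strand that covers 494 exon bases. Gm8550 had 38 counts in the vector control and 0 in Malt1-WT, at least 11.9-fold lower with a floor of 3 counts over the group. The library kit keeps the strand, but without knowing whether the counting used it, reads of Akr1cl and Gm8550 cannot be told apart.

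The genes around Idh1 were next examined for a change over the wider region. Of 38 other annotated genes in the table that start within 1 Mb of the Idh1 start, 9 had enough counts to be tested. Of these 2 rose, 4 fell and 3 did not pass, which is 66.7% called against 61.2% of all tested genes. Those that did not pass were Creb1 (-0.51, SE 0.335), Gm38058 (0.47, SE 0.251) and Pth2r (0.21, SE 0.178). The median log2 fold change was -0.26, but it and the share called count Gm8550 as a gene of its own. Without Gm8550 the tested genes went both ways. Gm8550, whose reads cannot be told apart from those of Akr1cl, was among those that fell and was named after its values were seen. The other 3 that fell were Fzd5, a Wnt receptor gene (-0.26, SE 0.073), the cyclin-like gene Ccnyl1 (-0.83, SE 0.336) and 2810408I11Rik (-0.61, SE 0.159). The methyltransferase gene Mettl21a (0.29, SE 0.059) and Gm28982 (0.57, SE 0.221) rose. Apart from Gm8550, no other gene tested in the window had a log2 fold change below -0.83, against -2.78 for Idh1 and -2.88 for Akr1cl. Ccnyl1 (99 counts in the vector group and 52 in the Malt1-WT group) and Gm28982 were not called by DESeq2 (adjusted p = 0.0684 and 0.0568). Ccnyl1 was also not called by edgeR without Malt1-WT replicate 1 (adjusted p = 0.201), vector control replicate 2 (0.056) or vector control replicate 3 (0.142). Gm28982 was not called by edgeR without vector control replicate 1 (adjusted p = 0.0865), vector control replicate 3 (0.0997), Malt1-WT replicate 1 (0.0603) or Malt1-WT replicate 3 (0.128).

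The stretch between Akr1cl and Idh1 was nearly silent. It holds 8 annotated genes, 7 of them protein-coding, among them the lens crystallin genes Cryga, Crygb, Crygc, Crygd and Cryge. Together they had 2 counts over all 6 libraries, and 6 had none. The next gene beyond Pikfyve, the parathyroid hormone receptor gene Pth2r, had a vector level of 3.71 ± 0.698 CPM and a Malt1-WT level of 4.27 ± 0.415 CPM (log2 fold change 0.21, edgeR adjusted p = 0.31).

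**Figure D3:**
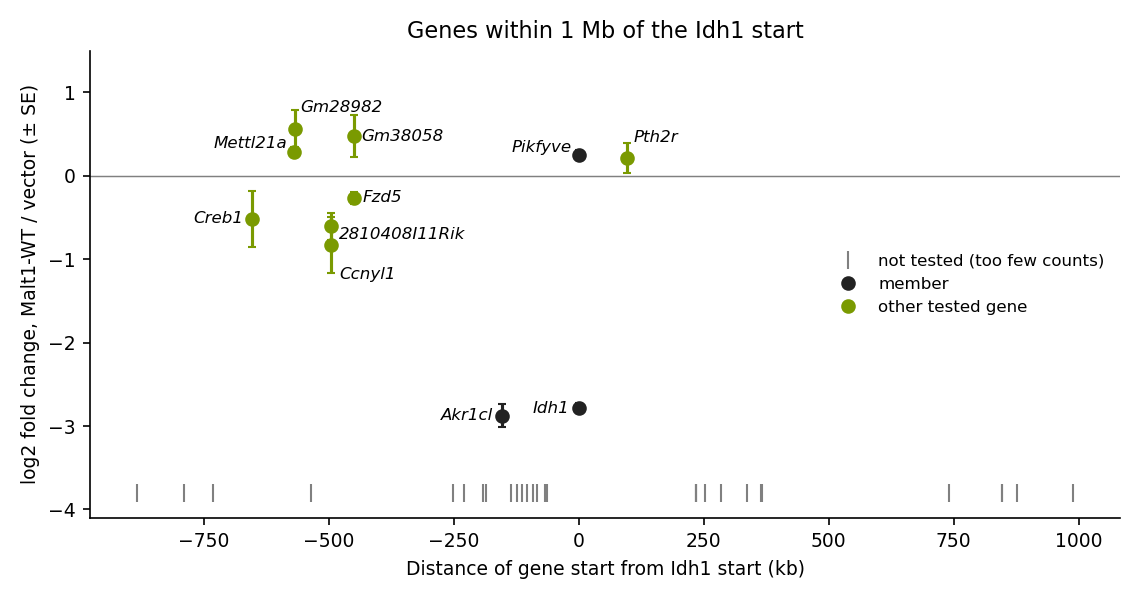
Log2 fold change (± SE) of Malt1-WT against vector control for the tested genes within 1 Mb of the Idh1 start, against the distance of their start from it; ticks at the bottom mark genes with too few counts to be tested, and Gm8550, with 0 counts in Malt1-WT, is left out. Idh1 and Akr1cl lie near -2.8 and the other genes drawn between -0.83 and 0.57.

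Genes that stand head to head often share regulatory sequence, so the difference between Idh1 and Pikfyve was set beside all such pairs. In 561 pairs of tested protein-coding genes with starts within 1000 bp of each other, the median difference in log2 fold change between the 2 genes was 0.33, and 90% differed by at most 1.04. Idh1 and Pikfyve differed by 3.03. Only 2 pairs differed by more, Plgrkt and Cd274 (3.91), where the PD-L1 gene Cd274 was higher, and Foxa3 and Sympk (3.38), where the transcription factor gene Foxa3 was higher. Among the 3 pairs, Idh1 and Pikfyve was the pair in which the lower gene made the difference. Of 232 pairs in which both genes were called, 65 (28%) were called in opposite directions. Since Idh1 was chosen for its low fold change, its place among the pairs is a description.

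**Figure D4:**
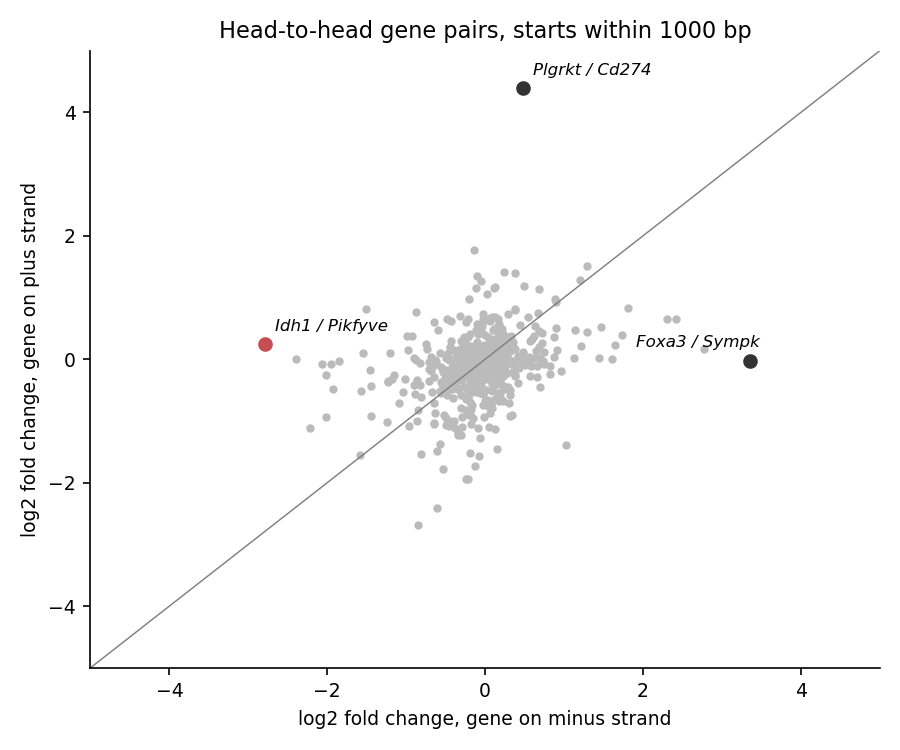
Log2 fold change of the minus-strand gene against that of the plus-strand gene in 561 head-to-head pairs; each point is a pair and the line marks equal change. Idh1 and Pikfyve (-2.78 and 0.25) lie far from the line, and only the 2 other named pairs are farther.

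Genes with a pattern like Idh1 were sought among the 8700 protein-coding genes whose mean log2 CPM reached 3, with predicted genes left out. The most alike were taken as those with the smallest root mean square distance between centred log2 CPM values over the 6 libraries. They were Fam83d (distance 0.043), a gene with a role in the mitotic spindle, Olfml3 (0.116), the DNA helicase gene Pif1 (0.145), the mitotic kinase gene Plk1 (0.154) and the thrombospondin gene Thbs2 (0.170). Fam83d went from 33.4 ± 1.29 to 5.06 ± 0.328 CPM and Thbs2 from 81.5 ± 0.505 to 14.2 ± 1.17 CPM (SD, n = 3). Akr1cl, below that level, was at a distance of 0.081 from Idh1. The same search for Akr1cl covered 10590 protein-coding genes, again without predicted ones, whose mean log2 CPM reached 0. Among these, Idh1 was the gene nearest to Akr1cl, before Fam83d (0.105), Olfml3 (0.118), Thbs2 (0.177) and Pif1 (0.191). With 2 groups of 3 libraries this distance mostly compares fold changes. Idh1 and Akr1cl were both selected on their fold change in these libraries, so their closeness is a description.

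Genes of the TCA cycle were mostly lower. Of 14 tested genes other than the Idh3 genes, 11 fell, 1 rose and 2, Dlst and Mdh2, did not pass (85.7% called against 61.2% of all tested genes, median log2 fold change -0.27). The largest falls were in Ogdh, the E1 subunit of the 2-oxoglutarate dehydrogenase that acts just after IDH3 (-0.59, SE 0.039, 143 ± 4.13 to 94.9 ± 1.29 CPM), in the succinate dehydrogenase subunit genes Sdhd (-0.46) and Sdhc (-0.44), and in the succinyl-CoA ligase gene Suclg2 (-0.44). The single gene that rose was Dld (0.37), the shared E3 subunit of several dehydrogenase complexes. All TCA cycle changes were smaller than that of Idh2 except the one of Ogdh. Genes around the entry of pyruvate were listed together, including enzymes that oppose entry or take carbon out of the cycle. They went both ways, 8 of 13 rising, 4 falling and 1 without a call (92.3% called, median 0.18). The pyruvate dehydrogenase phosphatase gene Pdp1 went from 30.0 ± 1.06 to 13.3 ± 1.86 CPM (log2 fold change -1.19). Pdk2, a kinase acting against it, was 3.03-fold lower, from a low level of 1.78 ± 0.308 CPM. The kinase genes Pdk1 (0.32, 159 ± 2.68 to 199 ± 6.31 CPM) and Pdk3 (0.46, 86.8 ± 1.74 to 119 ± 0.724 CPM) rose from higher levels. Pdk4 had too few counts to be tested. Pck2, which makes phosphoenolpyruvate in mitochondria, rose by 0.87 and the pyruvate carrier gene Mpc1 by 0.56.

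Genes that handle citrate and isocitrate in the cytosol, where IDH1 works, included 5 of 8 that fell, 0 that rose and 3 without a call (62.5% called, median -0.23). Without Malt1-WT replicate 2, 1 gene was called higher. Those that fell were Acss2, which makes acetyl-CoA from acetate (-1.06, 25.4 ± 2.91 to 12.2 ± 1.71 CPM), Aco1, the cytosolic aconitase that makes isocitrate (-0.47, 124 ± 5.08 to 89.4 ± 1.52 CPM), the malate dehydrogenase gene Mdh1 (-0.32), the ATP-citrate lyase gene Acly (-0.32) and Ireb2 (-0.15). The citrate carrier gene Slc25a1 was at 16.7 ± 1.41 and 17.5 ± 1.43 CPM and did not pass.

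Other sources of NADPH were listed with NADP kinases and related folate enzymes, not all of which make NADPH. They moved in both directions: 8 of 16 rose, 5 fell and 3 were not called (81.2% called, median 0.11). The mitochondrial folate enzymes Aldh1l2 (1.58, SE 0.038, 110 ± 3.50 to 331 ± 22.2 CPM) and Mthfd2 (1.13, SE 0.036) rose most. G6pdx, the first enzyme of the pentose phosphate pathway, rose by 0.67 (193 ± 1.48 to 307 ± 1.52 CPM), and the malic enzyme gene Me1 was at 103 ± 3.51 and 108 ± 2.06 CPM and did not pass. The cytosolic folate enzyme gene Aldh1l1 fell by 1.88 from 1.62 ± 0.263 CPM, and Nnt, the mitochondrial transhydrogenase, fell by 0.75 (63.0 ± 4.20 to 37.5 ± 2.72 CPM). Among redox defence genes that draw on NADPH or glutathione, 6 of 9 rose, 2 fell and 1 was not called (88.9% called, median 0.39). Txnrd1, the cytosolic thioredoxin reductase, rose by 0.99 (340 ± 2.16 to 674 ± 17.8 CPM), the glutaredoxin gene Glrx by 0.89 and Nqo1 by 0.64, while the glutathione peroxidase genes Gpx1 (-0.92) and Gpx4 (-0.22) fell.

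Genes around the supply of 2-oxoglutarate from glutamine and glutamate were listed together, including transporters and enzymes that can work the other way. They rose in 9 of 15 cases, fell in 4 and were not called in 2 (86.7% called, median 0.18). The transaminase gene Gpt2 (1.13, 64.1 ± 3.72 to 140 ± 1.73 CPM), the glutaminase gene Gls2 (1.05), the aspartate transaminase gene Got1 (0.73) and the branched-chain transaminase gene Bcat1 (0.54) rose most. Enzymes that use 2-oxoglutarate, listed with a few related enzymes, rose in 21 of 30 cases, fell in 5 and were not called in 4 (86.7% called, median 0.32). The histone demethylase gene Kdm6b rose by 1.43 (71.7 ± 3.11 to 193 ± 0.540 CPM), the HIF prolyl hydroxylase gene Egln3 by 1.34 (284 ± 7.42 to 719 ± 6.60 CPM) and the collagen prolyl hydroxylase gene P4ha2 by 0.83. Its relative P4ha3 fell by 1.87 (10.4 ± 0.527 to 2.80 ± 0.643 CPM).

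Aldo-keto reductases other than Akr1cl showed no change of its size. Of 16 listed genes 8 were tested, of which 4 rose, 1 fell and 3 did not pass (62.5% called, median 0.016). Akr1b3, the aldose reductase gene, rose by 0.39, Akr1b8 by 0.29 and Akr1b10 by 0.18, and Akr1e1 fell by 0.37. With scaling by library size only 2 rose and 2 fell, and without vector control replicate 2 or vector control replicate 3 the number that fell was 2. The call of Akr1b10 was lost in 7 of 13 alternative fits (adjusted p = 0.0583 to 0.335 in edgeR or DESeq2), among them those without vector control replicate 1 (0.0963), vector control replicate 3 (0.109) and Malt1-WT replicate 3 (0.335). Near-identical Akr1b and Akr1c copies can share reads.

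Partners of PIKfyve and other genes of its lipid pathway went both ways, 8 of 22 rising, 10 falling and 4 without a call (81.8% called, median -0.069). The scaffold gene Vac14 (-0.17) and the phosphatase gene Fig4 (-0.39), whose products form a complex with PIKfyve, fell. Pik3c3 (-0.48), which makes its substrate, also fell, while Pik3r4 was at 38.5 ± 0.924 and 37.0 ± 0.892 CPM and was not called. The largest changes were in the myotubularin phosphatase genes Mtmr7 (3.03-fold higher, 4.90 ± 0.312 to 14.9 ± 0.808 CPM) and Mtm1 (1.06), the endolysosomal channel gene Tpcn1 (-0.92) and the lipid kinase gene Pip4k2b (-0.87). Genes of peroxisomes, the second site of IDH1, fell in 7 of 18 cases, rose in 3 and were not called in 8 (55.6% called, median -0.11). With scaling by library size only 10 fell and 2 rose. Acox3 rose by 1.08 (17.9 ± 0.881 to 37.8 ± 1.28 CPM), Ech1 fell by 0.64 and Hacl1 by 2.30, the last from only 0.917 ± 0.080 CPM. Phyh (-0.39) was not called by edgeR without vector control replicate 2 (adjusted p = 0.137) or Malt1-WT replicate 2 (0.0803).

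**Figure D5:**
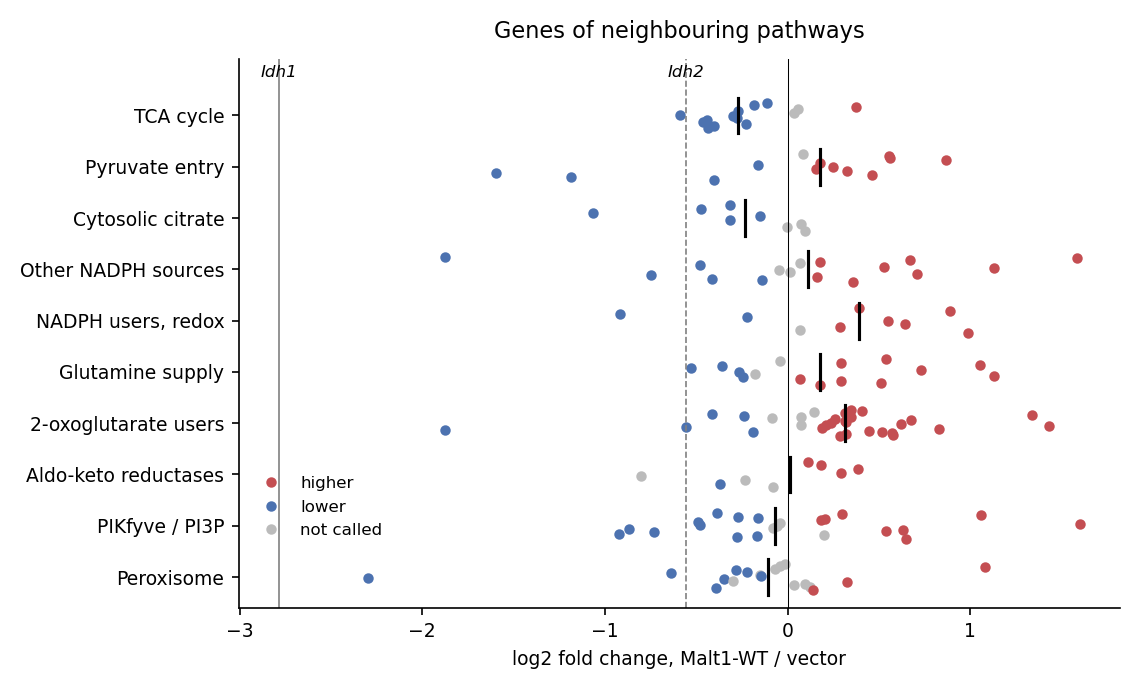
Log2 fold change of Malt1-WT against vector control for the tested genes of 10 lists around the isocitrate dehydrogenases; colours mark genes called higher, lower or not called at an edgeR adjusted p under 0.05, black bars are list medians and grey lines mark Idh1 (-2.78) and Idh2 (-0.56). The medians lie between -0.27 and 0.39, and no gene drawn is as low as Idh1.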

How the data were processed

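RNA from 3 vector control and 3 Malt1-WT libraries was analysed, grouped by sample title. The authors deposited raw counts per gene symbol, per the file headers; the submitters' processing notes name the build GRCm38.p6 and, as tools, STAR 2.7.3a, featureCounts 1.6.3 and Trim Galore 0.6.0. Not given in the sources used here: annotation, strand setting. The same deposited table holds the authors' log2 fold change and mean log2 expression; the authors' t score and p-value columns, per the file headers, were not used.

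Genes were kept with filterByExpr (minimum count 10), scaled by TMM and tested with the robust quasi-likelihood fit of edgeR 4.0.16 (R 4.3.3), with Benjamini-Hochberg adjustment over 13594 genes. The SE is the log2 fold change over the square root of F. DESeq2 1.42.0, other scalings and filters, a replicate block and leaving out each library were alternatives. The fit was tested on simulated data. Positions and exon lengths came from GENCODE M21 (GRCm38), which matched 99.8% of tested symbols, and promoter sequences from RefSeq (6 of 7 members).

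The members and all lists were chosen with earlier results of these data known, and the motifs after the sequences were seen. Genes named are the members, Malt1, up to 4 called genes with the largest change in each of 10 lists, tested genes around Idh1, the 5 genes most like Idh1 or Akr1cl, plus at most 5 others in a list, Gm8550 among them, chosen after their values were seen. One list gene is not reported here by name.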

Additional observations from a re-analysis of the deposited data

How the results depend on the processing

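Under 13 alternative fits no value of the 7 genes changed sign. Leaving out 1 library gave -2.83 to -2.75 for Idh1, -2.93 to -2.79 for Akr1cl, -0.62 to -0.49 for Idh2 and 0.19 to 0.30 for Pikfyve on the log2 scale. Only scaling by library size moved values by more than the replicate spread, to -0.23 for Idh3a, -0.21 for Idh3b and -0.18 for Idh3g. It left the median of all genes at -0.079, and the shift comes from the scaling itself. Within 250 kb of the Idh1 start 1 of 2 tested genes was called, against 6 of 9 within 1 Mb, since fewer genes were tested. The called gene within 250 kb was Gm8550, which also counts among those within 1 Mb. Its reads cannot be told apart from those of Akr1cl, so whether Gm8550 changed on its own is not known. With pairs limited to starts within 300 bp, 1 of 470 pairs differed more than Idh1 and Pikfyve. The genes most like Akr1cl by fold change alone shared 2 of 5 names with those by distance. With the replicate number as a block 8168 genes were called, against 8320 without it, and no list's total of called genes moved by over 1.5 times. By direction, scaling by library size only gave 2 aldo-keto reductases rising and 2 falling in place of 4 and 1, and 2 peroxisomal genes rising and 10 falling in place of 3 and 7. Over all genes it gave 3528 higher and 5006 lower in place of 4210 and 4110. Deviations of same-numbered libraries correlated at -0.026, -0.021 and 0.017, so these values show no pairing by number. Whether the libraries were handled as pairs is not known. DESeq2 called 7632 genes. Depth limits Akr1cl, with 39 to 41 counts per Malt1-WT library, and list genes near 1 CPM.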

Other observations

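A few genes of the lists had no or very few counts in all 6 libraries, and were picked out after their values were seen. Txnrd2, the mitochondrial thioredoxin reductase, is listed at 0 in every library. The pyruvate carrier gene Mpc2 had a vector level of 0.448 ± 0.219 CPM and a Malt1-WT level of 0.273 ± 0.203 CPM (SD, n = 3 each), while its partner Mpc1 was at 6.65 ± 1.14 and 9.77 ± 1.84 CPM. The keratin gene Krt18 was at 0.158 ± 0.102 and 0.315 ± 0.178 CPM, against 68.5 ± 2.30 and 59.6 ± 1.83 CPM for its partner Krt8. These levels are not compared per length.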
